A study of Homo sapiens with 48 samples.

Results

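The 10 enzyme genes of pyrimidine and deoxynucleotide synthesis described here were followed in K562 cells after imatinib. They are CAD, DHODH, UMPS, CTPS1, UCK2, RRM1, RRM2, TK1, DTYMK and DUT. The array had 11963 genes with a probe set of their own. All probe sets annotated to the 10 genes were taken, which gave 18 of 22215 tested. Of these, 17 were annotated to 1 gene. The only probe set of UCK2 was annotated to MIR3658 as well, a microRNA gene that lies inside UCK2, and it is called the UCK2/MIR3658 probe set here.

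K562 is an established human cell line from a chronic myeloid leukaemia, driven by the fusion kinase BCR-ABL1, which imatinib inhibits. The treated cells had 1 micromolar imatinib for 24 hours and the control cells were mock treated, in 8 sets lettered A to H, each with 3 imatinib and 3 mock samples. Neither the meaning of the letters nor the number of separate cultures is stated in the labels. The p-values below therefore reflect spread between these samples only, and part or all of it may be technical. In the combined fit this spread includes differences of the change between sets. The sign-flip p-values of RNA quality rest on the spread between sets. All samples are of the same line, with no other genotype or strain.

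Per the labels, imatinib RNA was isolated with a column kit alone and carried a reduced amount of spike controls. Mock RNA went through Trizol and the column kit and carried the full amount. Treatment and isolation method cannot be told apart in any set. Values are log2 levels, and arrays of different sets were on different scales, so every change below is imatinib minus mock within sets. RNA was taken from whole cultures, in which fewer cells with a transcript and less transcript per cell cannot be told apart.

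The 8 measured erythroid and K562 markers had mean levels from 9.35 to 13.85 in imatinib samples and from 6.92 to 12.89 in mock samples. All 8 rose after imatinib, with a median change of 1.11, from 0.21 for the transferrin receptor TFRC to 3.13 for the embryonic globin HBZ. Of 6 monocyte and granulocyte markers 0 reached the median level of all probe sets, against 3 of 5 T cell, 2 of 4 B cell and 4 of 5 fibroblast and epithelial markers. The summed log2 level of the T cell markers was 32.92 in imatinib and 34.26 in mock samples, and CD3D, the 1 of them that fell, had 6.39 and 8.12. The sums were 24.6 and 24.29 for B cell markers, 29.98 and 30.12 for monocyte and granulocyte markers, and 34.73 and 34.57 for fibroblast and epithelial markers. Opposite changes can cancel in such sums. Of the B cell markers 3 were called higher and 0 lower, and of the T cell markers 1 and 1. Of the monocyte and granulocyte markers 1 was called higher and 1 lower (LYZ, by 0.44). Of the fibroblast and epithelial markers 2 were called higher and 1 lower. The 3′ minus 5′ difference of the actin control probe sets, a sign of RNA quality, was 0.15 ± 0.19 higher after imatinib (SD, n = 8 sets, exact sign-flip permutation p = 0.0469, adjusted 0.0938). For GAPDH it was 0.02 ± 0.08 higher (exact p = 0.531). The part of these values in the results was not tested.

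Pyrimidine nucleotides are built from glutamine, bicarbonate and aspartate in a chain of reactions that ends in UMP, from which UTP and CTP are made, or they are salvaged from uridine and cytidine. Ribonucleotide reductase then turns ribonucleotides into the deoxynucleotides used for DNA, and thymidine nucleotides need further enzymes of their own. In dividing cells, several of the deoxynucleotide genes are known to be transcribed mainly around S phase, while those of the UMP chain serve RNA synthesis as well.

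After imatinib, a probe set of each of CAD, DHODH, UMPS, CTPS1, DTYMK, RRM2 and RRM1 fell, as did the probe set shared by UCK2 and MIR3658, while those of TK1 and DUT were not called. The UCK2/MIR3658 probe set fell by 0.97 ± 0.03 log2 (SE, n = 24 per treatment), CTPS1 fell by 0.83 ± 0.04, UMPS fell by 0.50 ± 0.03, CAD fell by 0.48 ± 0.03, DTYMK fell by 0.47 ± 0.03, RRM2 fell by 0.43 ± 0.04, DHODH fell by 0.35 ± 0.04 and RRM1 fell by 0.19 ± 0.05. TK1 had a change of 0.08 ± 0.04 and DUT of 0.00 ± 0.04. These are the values of the brightest probe set of each gene.

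In the combined fit 12 of the 18 probe sets were lower after imatinib and 0 were higher, at a limma adjusted p of 0.05. Over all probe sets 65.2% were called, 25.8% lower and 39.3% higher. This split depended on level and scaling. With only probe sets at or above the median level tested, as 14 of the 18 were, calls lower and higher were nearly equal in number. The share called lower was then above 25.8%. With arrays centred on their median, more of all probe sets were called lower than higher, and after quantile normalization within sets more were called higher. Of the probe sets above 0, that of TK1 was the nearest to a call (limma adjusted p = 0.054, 0.0355 before adjustment). By gene, 7 of 9 genes with a probe set of their own fell and 0 rose, and the UCK2/MIR3658 probe set fell. Of all genes 27.1% fell and 41.6% rose. The 4 probe sets of CTPS1, UCK2/MIR3658 and UMPS (2) were also lower in 8 of 8 sets fitted alone, as were 6.57% of all probe sets. In 7 of the 18 probe sets the 3 imatinib samples lay below the 3 mock samples in every set, which held for 8.60% of all probe sets. Of the 6 probe sets not called, 3 were below the median level of all probe sets, where a change could be missed.

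**Figure D1:**
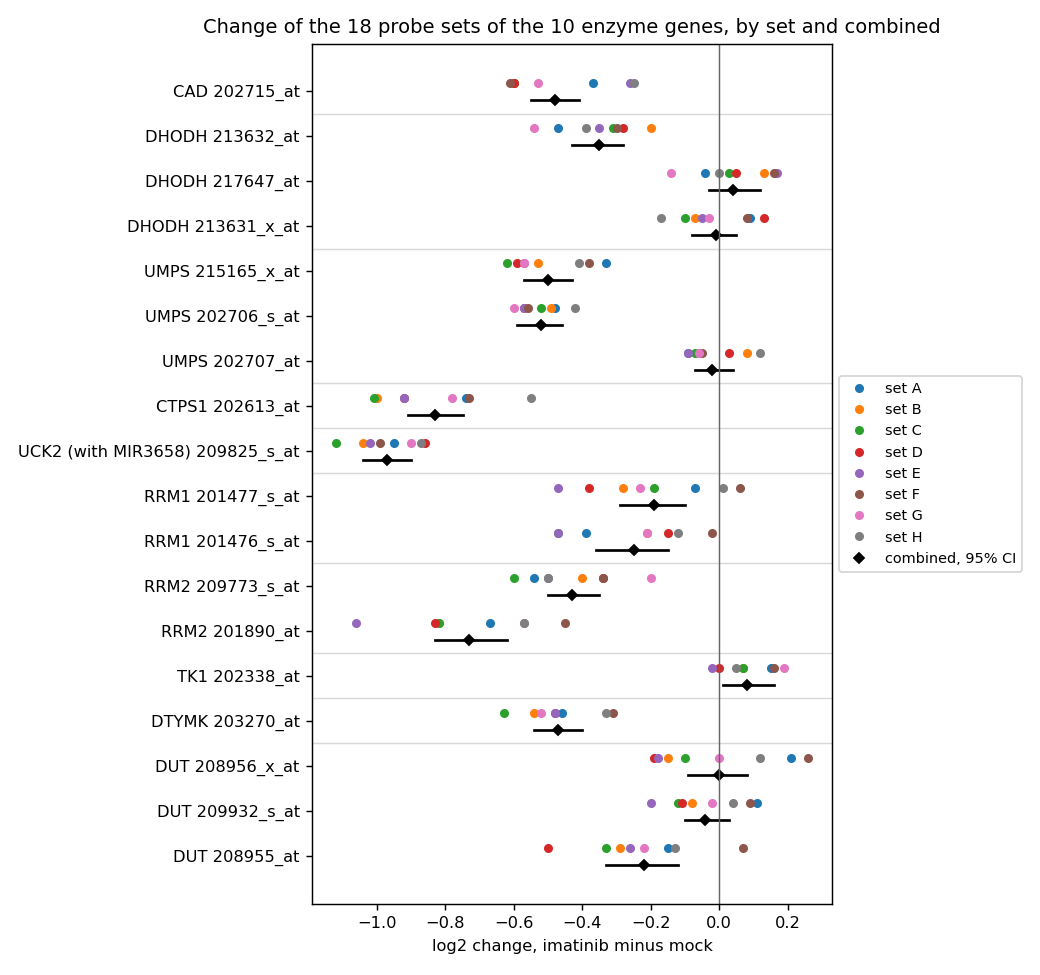
Log2 change, imatinib minus mock, of the 18 probe sets (rows, grouped by gene); coloured points are sets A to H (3 against 3 samples) and black diamonds the combined fit with its 95% confidence interval. UCK2/MIR3658 and CTPS1 lie furthest below 0, while TK1, 2 DUT, 2 DHODH and 1 UMPS probe sets have intervals close to 0.

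Fitted alone, each set called some of the 18 probe sets, and all of these were lower. Set A called 9, where 28.3% of all probe sets were called and 14.7% were called lower. Set B called 11 (47.7% of all, 19.9% lower), set C 10 (39.0%, 20.1% lower) and set D 11 (38.9%, 18.0% lower). Set E called 9 (19.4%, 12.1% lower), set F 5 (16.5%, 9.47% lower), set G 8 (27.5%, 16.0% lower) and set H 9 (24.1%, 11.8% lower). Set F thus had the fewest calls both among these probe sets and among all. The 5 called in set F were CAD, CTPS1, UCK2/MIR3658 and 2 of UMPS. The median change of the 10 brightest probe sets lay between -0.60 in set C and -0.32 in set F, against medians of all probe sets between 0.08 in set B and -0.01 in set F.

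CAD encodes the protein that carries out the opening steps of UMP synthesis, from carbamoyl phosphate to dihydroorotate. The gene lies on chromosome 2 at 27217369 to 27243943 of GRCh38.p14. In set F, where its change was largest, levels were 7.72, 7.48 and 7.69 in imatinib samples and 8.25, 8.32 and 8.14 in mock samples. In set H, where it was smallest, they were 8.52, 8.57 and 8.61 in imatinib samples and 8.86, 8.82 and 8.78 in mock samples. The 2 groups did not overlap in any of the 8 sets, and the level after imatinib was 71.7% of that in mock (adjusted p = 1.76e-17). Changes were near -0.60 in sets B, C, D and F and -0.53 in set G, but -0.37, -0.26 and -0.25 in sets A, E and H. Set E was the 1 set that did not call it (limma adjusted p = 0.0824).

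CAD was also the 1 probe set of the 18 whose change differed in size between sets (moderated F over the set-by-treatment terms, limma adjusted p = 0.0373). The count of 1 was no higher than the share over all probe sets, 7.20%. The call for CAD was lost with the replicate number as a block (adjusted p = 0.131) and with arrays centred on their median (adjusted p = 0.079). It was also lost on leaving out any of 14 single samples (adjusted p up to 0.0691).

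DHODH, the mitochondrial enzyme that oxidises dihydroorotate to orotate, is on chromosome 16 at 72008744 to 72027659. Its 3 probe sets were dim, and the brightest was at the 48.1 percentile of all probe sets in mock samples. That probe set, 213632_at, fell by 0.35 ± 0.04 (limma adjusted p = 2.27e-11), with changes between -0.54 in set G and -0.20 in set B. In set G levels were 6.56, 6.72 and 6.54 in imatinib samples and 7.03, 7.28 and 7.14 in mock samples, without overlap. In set B they were 7.58, 7.23 and 7.29 in imatinib samples and 7.56, 7.43 and 7.71 in mock samples, which overlapped, as they did in set H. The other probe sets, 217647_at and 213631_x_at, at the 24.1 and 20.3 percentiles, had changes of 0.04 and -0.01 and were not called in any set. The suffix x marks a probe set whose probes may match other transcripts.

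UMPS, which closes the chain by making UMP from orotate, lies on chromosome 3 at 124730452 to 124749273. It had 2 probe sets at similar levels and a dim one. Probe set 215165_x_at fell by 0.50 and 202706_s_at fell by 0.52 ± 0.03, and both were called lower in all 8 sets without overlap. In set C, levels of 215165_x_at were 7.46, 7.47 and 7.35 in imatinib samples and 7.96, 8.26 and 7.95 in mock samples. Of the 18 probe sets, 202706_s_at varied least between sets, from -0.60 in set G to -0.42 in set H. The dim probe set 202707_at, at the 33.6 percentile, differed by -0.02 ± 0.03, short of the threshold, and its groups overlapped in all 8 sets. It passed with arrays centred (-0.05, adjusted p = 0.0428) and after quantile normalization (-0.06, adjusted p = 0.0188).

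CTPS1 makes CTP from UTP with glutamine as nitrogen donor. The gene is on chromosome 1 at 40979696 to 41012565. Its single probe set was called lower in all 8 sets, with no overlap in any. In set C levels were 7.09, 6.91 and 6.73 in imatinib samples and 7.86, 8.00 and 7.89 in mock samples. In set H, where the change was smallest, they were 7.59, 7.73 and 7.79 in imatinib samples and 8.20, 8.29 and 8.27 in mock samples. The combined level after imatinib was 56.2% of that in mock (limma adjusted p = 7.97e-24). Its set changes ran from -1.01 in set C to -0.55 in set H.

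UCK2 phosphorylates uridine and cytidine in salvage. Its gene spans 165827614 to 165911618 on chromosome 1, with MIR3658 at 165907921 to 165907976 inside it. The UCK2/MIR3658 probe set had the lowest change of the 18, at the 2.39 percentile of changes of all probe sets, and the signals of both genes cannot be told apart in it. In set C levels were 8.04, 8.14 and 8.06 in imatinib samples and 9.14, 9.29 and 9.17 in mock samples. In set D, where the change was smallest, they were 8.47, 8.40 and 8.37 in imatinib samples and 9.24, 9.29 and 9.30 in mock samples. The groups were apart in all 8 sets, and the combined level was 51.1% of that in mock (limma adjusted p = 9.47e-30). Changes varied little, from -1.12 in set C to -0.86 in set D (SD 0.09 over 8 sets).

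**Figure D2:**
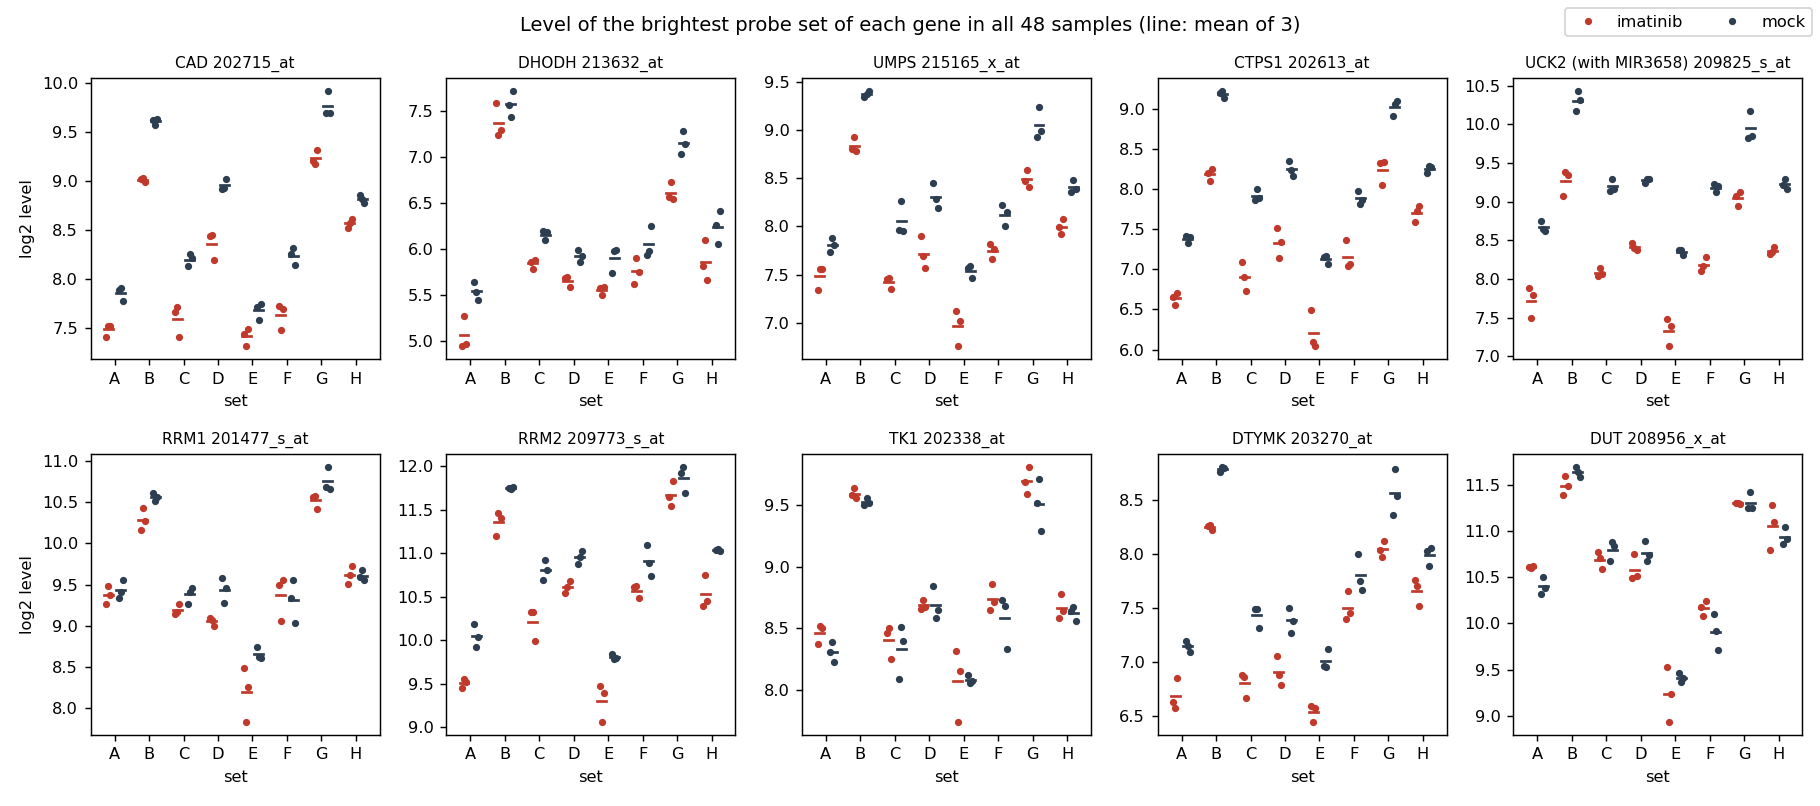
Log2 level of the brightest probe set of each gene in all 48 samples, by set; red points are imatinib and dark points mock samples, and lines are means of 3. For CAD, UMPS, CTPS1, UCK2/MIR3658 and DTYMK every imatinib sample lies below the mock samples of its set, whereas for TK1 and DUT the groups overlap in 7 of 8 sets.

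Ribonucleotide reductase is made of a large catalytic subunit, RRM1, and a small subunit, RRM2, which holds the tyrosyl radical and is the one whose amount follows S phase. RRM2 lies on chromosome 2 at 10122568 to 10211010 and RRM1 on chromosome 11 at 4094685 to 4138932. Both probe sets of RRM2 fell. The brighter, 209773_s_at, fell by 0.43 ± 0.04 (limma adjusted p = 8.23e-14) and 201890_at fell by 0.73 ± 0.05 (adjusted p = 5.69e-17). In set B levels of 201890_at were 9.95, 10.23 and 10.12 in imatinib samples and 11.02, 10.91 and 10.84 in mock samples. Imatinib samples were below mock samples in 8 of 8 sets for 201890_at and in 7 of 8 for 209773_s_at, with overlap in set G. The change of 201890_at was below that of 209773_s_at in all 8 sets, so the size of the RRM2 change depended on the probe set.

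The change of RRM2 201890_at was largest in set E, where the imatinib samples also spread most, at 7.94, 6.94 and 7.23, with mock samples at 8.49, 8.46 and 8.36. Across all probe sets, imatinib samples 1 and 2 of set E lay a median of 0.187 and 0.178 from the mean of the other samples of their group, against 0.084 for imatinib sample 3, and mock sample 2 of set G lay 0.208 away. The set E change was -1.06 with all samples, -1.35 without imatinib sample 1 and -0.85 without imatinib sample 2, each called lower. Without imatinib sample 1 of set E, the set-by-treatment terms passed for 5 of the 18, RRM2 201890_at (limma adjusted p = 0.0033), DUT 208956_x_at (0.022), CAD (0.0383), CTPS1 (0.0403) and RRM1 201477_s_at (0.0443). The share of all probe sets that passed in that fit is not given here. With single samples left out, 963 to 2928 of all probe sets passed, against 1599 as deposited. The 5 are therefore not read as particular to these genes.

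RRM1 changed less. Its probe sets fell by 0.19 ± 0.05 (201477_s_at, limma adjusted p = 0.000426) and fell by 0.25 ± 0.05 (201476_s_at, adjusted p = 2.25e-05). In set E, where the change of 201477_s_at was largest, the groups did not overlap. That call was lost without imatinib sample 2 (-0.29, adjusted p = 0.0707) or imatinib sample 3 (-0.50, adjusted p = 0.0968), and without imatinib sample 1 it was -0.62 (adjusted p = 0.00219). In set F levels were 9.50, 9.06 and 9.55 in imatinib samples and 9.34, 9.56 and 9.03 in mock samples, which overlapped. Set changes of 201477_s_at ran from -0.47 in set E to 0.06 in set F, and 3 sets called it lower. After quantile normalization within sets its change was -0.06 and the call was lost (adjusted p = 0.176), while 201476_s_at remained called at -0.13 (adjusted p = 0.00761). The set change of RRM2 201890_at was below that of either RRM1 probe set in 8 of 8 sets, and that of RRM2 209773_s_at below RRM1 201477_s_at in 6 of 8 and below RRM1 201476_s_at in 7 of 8. No test of the difference between the subunits was run.

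**Figure D3:**
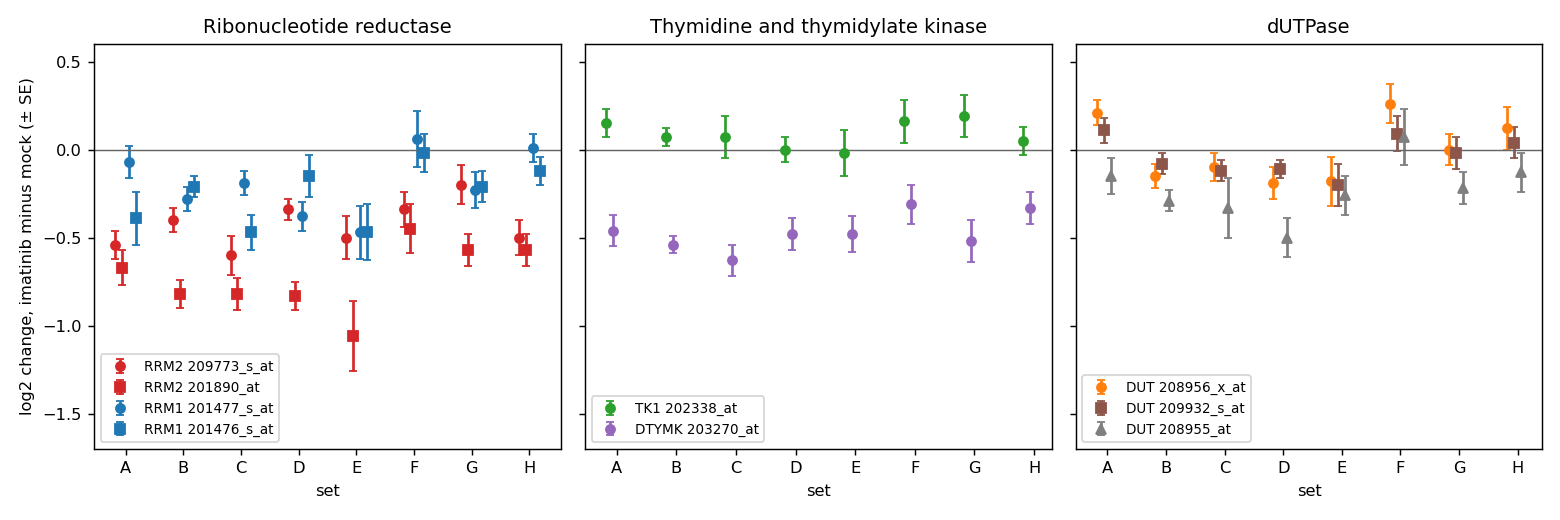
Log2 change, imatinib minus mock, of the deoxynucleotide genes in each set, with the standard error of that set's fit (3 against 3 samples), for ribonucleotide reductase (left), TK1 and DTYMK (middle) and DUT (right). RRM2 and DTYMK lie below 0 in every set, TK1 lies between -0.02 and 0.19, and the brighter DUT probe sets lie on both sides of 0.

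TK1, the cytosolic kinase that salvages thymidine and is a classic S-phase gene, is on chromosome 17 at 78174079 to 78187204. Its probe set differed by 0.08 ± 0.04, short of the threshold (limma adjusted p = 0.054, 95% confidence interval 0.01 to 0.16), and no set called it. In set G, with the largest difference, levels were 9.69, 9.59 and 9.81 in imatinib samples and 9.52, 9.71 and 9.29 in mock samples. In set E they were 8.32, 7.74 and 8.15 in imatinib samples and 8.12, 8.06 and 8.07 in mock samples. Set means differed by -0.02 to 0.19, and 6 of 8 sets had a difference above 0. The call changed with the scaling: after quantile normalization within sets the change was 0.17 and passed (adjusted p = 7.92e-06), and with arrays centred it was 0.05 (adjusted p = 0.385). It also changed on leaving out any of 9 single samples, with the lowest adjusted p without imatinib sample 2 of set E (0.00903).

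DTYMK, which phosphorylates dTMP to dTDP and so serves both thymidine salvage and the synthesis of dTMP from dUMP, lies on chromosome 2 at 241675747 to 241686815. It fell by 0.47 ± 0.03 to 72.4% of mock (limma adjusted p = 1.74e-16). In set C levels were 6.88, 6.86 and 6.66 in imatinib samples and 7.49, 7.49 and 7.31 in mock samples. In set F, the 1 set that did not call it (limma adjusted p = 0.117), they were 7.40, 7.66 and 7.45 in imatinib samples and 8.00, 7.75 and 7.67 in mock samples. The groups did not overlap in any of the 8 sets. Its change was below that of TK1 in 8 of 8 sets.

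DUT splits dUTP, which keeps uracil out of DNA and supplies dUMP for thymidylate. The gene is on chromosome 15 at 48331095 to 48343373, and its 3 probe sets disagreed. The bright ones, 208956_x_at and 209932_s_at, at the 97.1 and 95.7 percentiles of mock levels, differed by 0.00 ± 0.04 and -0.04 ± 0.03 (limma adjusted p = 0.929 and 0.3, not called). The dimmer 208955_at fell by 0.22 ± 0.05 (adjusted p = 0.000156) and was called lower in sets B and D. In set D levels of 208955_at were 7.97, 7.77 and 7.65 in imatinib samples and 8.43, 8.09 and 8.36 in mock samples. Its change was below that of each of the others in 8 of 8 sets.

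The DUT probe sets varied over the sets in a similar order. The change of each of the 3 was below 0 in sets B, C, D, E and G, though in set G that of 208956_x_at rounded to 0. The 3 highest changes of each were in sets A, F and H. For 208956_x_at levels in set A were 10.61, 10.60 and 10.62 in imatinib samples and 10.32, 10.50 and 10.39 in mock samples, with imatinib above mock. In set D they were 10.49, 10.75 and 10.51 in imatinib samples and 10.89, 10.68 and 10.74 in mock samples. The differences between sets did not pass for any DUT probe set (limma adjusted p between 0.124 and 0.412). The actin 3′ minus 5′ difference between imatinib and mock was highest in sets F (0.44) and A (0.38), followed by set C (0.25), where all 3 DUT changes were below 0, and it was 0.10 in set H. Its part in the DUT values was not tested. After quantile normalization within sets 208956_x_at rose by 0.11 (adjusted p = 0.00165) and 209932_s_at rose by 0.10 (adjusted p = 0.000116), while 208955_at fell by 0.17 (adjusted p = 0.000923), so the direction for DUT rested on the scaling and the probe set.

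Promoter windows were searched for short motifs, and windows of RRM2, which fell, and of TK1, which was not called, are printed to show where the matches lie. The letters CCAAT, the site of the factor NF-Y, were sought on both strands in RefSeq windows (GRCh38.p14) from 250 bases before to 50 after each annotated start. They occurred in 34.6% of 35116 windows and in 8 of the 16 windows of the 10 genes, which belonged to 7 genes. Windows of RRM2, TK1 and DTYMK held more than 1 match, and those of RRM2 (chr2:10122489-10122788, plus strand) and TK1 (chr17:78187003-78187302, minus strand) are shown, with CCAAT or its reverse complement ATTGG in capitals.
RRM2: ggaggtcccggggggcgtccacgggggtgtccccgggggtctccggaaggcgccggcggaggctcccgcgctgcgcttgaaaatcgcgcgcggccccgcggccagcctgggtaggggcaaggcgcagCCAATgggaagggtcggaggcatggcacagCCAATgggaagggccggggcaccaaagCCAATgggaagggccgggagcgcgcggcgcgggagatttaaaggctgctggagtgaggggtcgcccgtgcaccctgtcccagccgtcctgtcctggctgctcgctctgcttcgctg
TK1: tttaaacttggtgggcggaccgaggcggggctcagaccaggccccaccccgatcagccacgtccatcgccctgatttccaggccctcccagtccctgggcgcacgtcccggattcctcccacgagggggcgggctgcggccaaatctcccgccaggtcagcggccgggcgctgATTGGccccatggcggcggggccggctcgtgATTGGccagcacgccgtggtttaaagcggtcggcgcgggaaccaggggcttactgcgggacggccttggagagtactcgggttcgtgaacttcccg

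The RRM2 window holds 3 matches on the plus strand, whose first bases lie 123, 93 and 66 bases before the start. The TK1 window holds 2 on the opposite strand, 77 and 46 bases before it, and a second TK1 window, of another start, holds 0. The DTYMK window holds 2, at 92 and 24 bases before its start. The letters CACGTG, the E-box bound by MYC and other factors, were found in 1 of the 16 windows, that of DHODH, and in 7.26% of all windows. E2F-type sites, sought as TTTCCCGC, TTTCGCGC, TTTGCCGC and TTTGGCGC, were found in 1 of the 16 windows, of DUT, and in 3.31% of all windows. These matches describe the letters in the windows and say nothing of binding in these cells.

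The other genes of pyrimidine and deoxynucleotide metabolism went both ways. Of 26 measured of 34 listed, 9 fell and 10 rose, with a median change of -0.01 (9 and 9 after quantile normalization within sets, 10 and 8 with arrays centred), against a median of -0.45 over the 10 enzymes and 0.05 over all genes. NME1, a nucleoside diphosphate kinase, had mean levels of 10.24 in imatinib and 11.65 in mock samples and fell by 1.41 ± 0.04 (limma adjusted p = 1.04e-31). DCTPP1, which hydrolyses dCTP and modified forms of it, fell by 0.78. NME4, a mitochondrial nucleoside diphosphate kinase, rose by 1.04, and SLC29A1, the main equilibrative nucleoside transporter of the cell membrane, rose by 1.31. All 4 were called in the same direction in each of the 8 sets.

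Purine synthesis and salvage had 14 measured genes, of which 9 fell and 3 rose (median -0.44; 9 and 5, median -0.34, after quantile normalization within sets), against 11 that fell and 9 that rose among 27 DNA replication genes, where the median was -0.04. After quantile normalization within sets the replication genes had 7 calls lower and 14 higher and a median of 0.07, and with arrays centred 13 fell and 8 rose. The medians of the 10 enzymes and of the purine genes were thus close, while those of the replication genes and of the remaining pyrimidine genes lay near 0. These medians describe the lists and were not tested against each other.

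**Figure D4:**
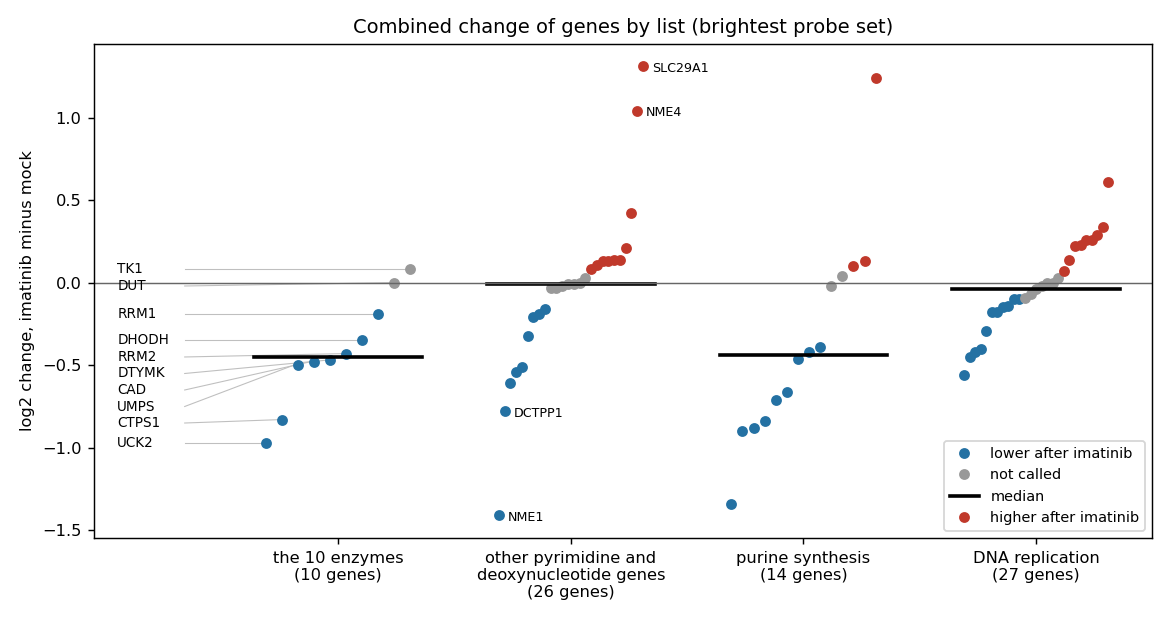
Log2 change, imatinib minus mock, of the brightest probe set of each gene in the combined fit, for the 10 enzymes (UCK2 by the probe set shared with MIR3658), 26 other pyrimidine and deoxynucleotide genes, 14 purine genes and 27 DNA replication genes. Blue points were called lower after imatinib, red points higher and grey points not called, and black lines are medians, at -0.45, -0.01, -0.44 and -0.04.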

How the data were processed

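RNA of 48 K562 samples was measured on Affymetrix arrays. The authors deposited 1 log2 value per probe set and sample for 22283 probe sets. A log2 scale was inferred from their range, 2.41 to 14.95. How they were summarised and normalized is not given in the sources used here. Array means differed by at most 0.053 within a set, and set means ran from 5.90 to 7.60. The 68 control probe sets were not tested. Probe sets were named by platform annotation and gene number, with RefSeq symbols of GRCh38.p14, and 19065 had 1 symbol, 1043 several and 2107 none. A gene's brightest probe set is that with the highest mean over 48 samples.

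Changes were fitted with limma 3.58.1 in R 4.3.3 (lmFit, eBayes, two-sided), with the set as a factor over all samples, within each set, and with set-by-treatment terms. Benjamini-Hochberg adjustment was over all 22215 probe sets, with a threshold of 0.05. Members, lists and motifs were chosen with earlier results of these data known. All member probe sets are named; other genes named are at most 4 of the pyrimidine list with the smallest p at or above the median level. Figures used matplotlib 3.10.9. A probe set's replicate SD had a median between 0.061 and 0.147 over 16 groups, and no replicate pair held identical values (largest difference in the closest pair 0.67). Precision is limited by the number of arrays.

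Deviations from group means of same-numbered imatinib and mock samples correlated at a median of 0.016 (24 pairs, 7 of them over 0.1), so numbers were not taken to pair samples. On simulated data of 22215 probe sets the combined fit recovered 49 of 50 changes of 0.25 log2, with 12 false calls among 211. The simulated noise was independent and normal, the change was the same in every set, and few probe sets were changed. The data here differ in these points, so the counts may not carry over. Fitted alone, sets E, F and G recovered 0 of 50 changes of 0.25 log2. At 0.5 log2 recovery ran from 14 of 50 in set E to 47 of 50 in set D. The set-by-treatment fit had 14 false calls among 134, and 4 among 117 with array weights by set, an alternative added after seeing the data.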

Additional observations from a re-analysis of the deposited data

Results flagged for a closer look

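The change of CAD differed in size between sets by the test of the set-by-treatment terms (limma adjusted p = 0.0373), from -0.61 in set F to -0.25 in set H. It was below 0 in 8 of 8 sets. Of the 18 probe sets only that of CAD passed, against 7.20% of all probe sets, so the count was no higher than that share. The adjusted p was 0.0378 with array weights by set, 0.079 with arrays centred on their median and 0.131 with the replicate block. Over the 48 fits that each left out a sample it ran from 0.0193 to 0.0691. It was above 0.05 in 14 of these fits. Those without a mock sample were B1 (0.0533), C2 (0.0641), C3 (0.0589), D3 (0.0511), E2 (0.0691), H1 (0.0504), H2 (0.0533) and H3 (0.065). Those without an imatinib sample were A3 (0.0504), B3 (0.0502), E3 (0.0688), G1 (0.0501), H2 (0.0573) and H3 (0.0662).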

How the results depend on the processing

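The count of 12 member probe sets called lower stayed between 11 and 13 under every other scaling, filter, weighting and left-out set or sample tried, and the number of genes lower by their brightest probe set, 8, between 7 and 9, the mean over all probe sets of a gene included (9, with DUT lower and TK1 higher). With the replicate block 12 remained lower, and a fit on 1 difference per set gave 12. Counts in single sets moved by at most 1.5 times. All called probe sets fell to 9019 when only those at or above the median level were tested, since fewer were tested. Member probe sets called higher, 0 as deposited, were 3 after quantile normalization within sets (TK1 and 2 of DUT) and 1, TK1, with dim probe sets left out, without set D or without set E. Leaving out single samples gave 0 to 1. TK1 then passed without mock samples C2 (adjusted p = 0.0326), C3 (0.0491), D1 (0.031), E1 (0.0464), F1 (0.0422) or G2 (0.0368), or imatinib samples C3 (0.0354), E2 (0.00903) or H1 (0.0446). Members with set-by-treatment terms past the threshold, 1 as deposited, were 0 with arrays centred or the replicate block, and 0 to 5 with single samples left out (2 without imatinib sample 1 of set H). All probe sets past it, 1599, were 957 with dim probe sets left out, 973 with the replicate block, and 963 to 2928 with single samples left out. The sign turned only for probe sets near 0 that were not called as deposited. DUT 208956_x_at was 0.11 and DUT 209932_s_at 0.10 after quantile normalization. DUT 208956_x_at was also 0.02 without set B, D or E, 0.01 without set C, and -0.02 to 0.02 without single samples. DHODH 213631_x_at was 0.01 without set H, and UMPS 202707_at 0.00 with array weights. The cause of these shifts was not tested.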
